A study of Mus musculus with 3 samples.

Results

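The nuclear-coded respiratory chain genes were 93 of the 17168 genes in a single-cell RNA count table of leukocytes from mouse sciatic nerve. They were taken by name, as the genes whose symbol began with Ndufa, Ndufb, Ndufc, Ndufs, Ndufv, Uqcr, Cox4 to Cox8 or Atp5, together with Sdha, Sdhb, Sdhc and Sdhd. The rule itself reads only the names. The cells were the CD45+ fraction, that is the leukocytes, of sciatic nerves of NOD.AIRE GW/+ mice aged 15 weeks. All animals shared that genotype, a NOD background with a GW allele of Aire in 1 copy, and no second genotype, treatment or age was analysed here. Aire is the gene through which thymic epithelial cells display tissue antigens to developing T cells, and NOD is an inbred strain prone to autoimmunity. 3 libraries were deposited: libraries 1 and 2 were sequenced from the 3′ end of transcripts and library 3 from the 5′ end. Whether a library held 1 animal or several pooled animals is not said in the labels. The p-values below rest on how much differences between cell groups vary over these 3 libraries, after each library's own shift is removed. That spread is estimated over all cell groups of a fit together and may be partly technical.

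The respiratory chain is the set of protein complexes in the inner mitochondrial membrane that passes electrons from NADH and succinate to oxygen and uses the resulting proton gradient to make ATP. Complex I (the Nduf genes) takes electrons from NADH, complex II (the Sdh genes) from succinate, complex III (the Uqcr genes among others) passes them to cytochrome c, complex IV (the Cox genes) to oxygen, and complex V (the Atp5 genes) is the ATP synthase. Most subunits are coded in the nucleus and imported, while a small core of complexes I, III, IV and V is coded by mitochondrial DNA, so the complexes are built from the products of both genomes. Complex II has no mitochondrially coded subunit. By complex, 45 members belonged to complex I, 4 to complex II, 8 to complex III, 17 to complex IV and 19 to complex V. Among them 10 were assembly factors, which help to build a complex without staying in it: 8 Ndufaf genes, Cox7a2l and Atp5s.

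The table held 11640 cells (6033, 2333 and 3274 in libraries 1, 2 and 3) with 22587246, 11398628 and 13791264 unique molecular identifiers (UMIs, each standing for 1 captured RNA molecule). The median was 3011, 4156 and 3713 UMIs per cell. 6 cell barcodes occurred in more than 1 library. The members took 1.94%, 2.23% and 2.09% of all UMIs in the 3 libraries, whereas the 13 mitochondrially coded respiratory chain genes took 4.26%, 2.96% and 1.71%. The share of the mitochondrially coded genes was lowest in the 5′ library in each of 10 classes. With only 1 genotype, comparisons were made between cell classes within libraries. The depositors' 10 cell classes were checked against marker genes, as means over the 3 libraries. Macrophage markers (C1qa, C1qb, Csf1r and Adgre1) summed to 7372 CPM (counts scaled to a common library total) in the class Mac. They ranged there from 1371 to 11630 CPM between libraries, and their mean was at most 124 CPM in any other class. B cell markers summed to 3923 CPM in B and 673 in Plasma. The class Mixed held 2742 CPM (605 to 5555 between libraries) of the γδ T cell markers Trdc, Trdv4 and Il17a. The class gdT/NK/NKT held 352 CPM of them (167 to 487). The dendritic cell list was at 390 CPM in cDC and 431 CPM in pDC. The pDC markers Siglech, Ccr9 and Bst2 summed to 9609 CPM in pDC and to at most 516 CPM in any other class. The plasma cell markers Jchain, Mzb1 and Sdc1 summed to 39130 CPM in Plasma and 677 CPM in B. The neutrophil genes S100a8 and S100a9 were at 136 CPM in Mac and at 0.376 CPM or less in the other classes. Their part in the macrophage results below was not tested. Schwann cell markers were at 2.25 CPM or less in each class and fibroblast markers at 1.07 CPM or less. The endothelial list (Pecam1 and Cdh5) was higher, from 10.6 CPM in Mac to 89.4 CPM in pDC and 97.2 CPM in B. Which cells these endothelial-list UMIs came from was not tested.

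6 members with at least 100 UMIs were recorded in only some of the libraries. Ndufb1-ps, Atp5md, Atp5mpl and Atp5o had 3703, 5035, 4543 and 2924 UMIs, all in library 3. Atp5o.1 and Atp5s had 7421 and 154 UMIs, all in libraries 1 and 2. RefSeq lists Usmg5 and 2010107E04Rik as other names of Atp5md and Atp5mpl, and these had 4929 and 3646 UMIs, and 6270 and 3391 UMIs, in libraries 1 and 2 and 0 in library 3. Among all gene names, 1346 had UMIs in library 3 alone and 1981 in libraries 1 or 2 but not in 3. A level or fold change of these 6 names therefore compares classes only within the libraries that use the name. They are left out of the examples below but stay in the counts of members tested and called.

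By mean, the members' share of UMIs was lowest in plasma cells and B cells and highest in the class gdT/NK/NKT. It was 1.40%, 1.80% and 1.73% in B cells of libraries 1, 2 and 3 (1.65 ± 0.21%, mean and SD, n = 3). In CD4 T cells it was 1.76%, 2.14% and 1.92%, in regulatory T cells 2.21 ± 0.19% and in CD8 T cells 2.31 ± 0.08%. In gdT/NK/NKT it was 2.23%, 2.46% and 2.46%, above B cells in each library. Macrophages had 2.14%, 1.96% and 2.42%, the class cDC (conventional dendritic cells) 2.27 ± 0.17%, pDC (plasmacytoid dendritic cells) 2.28 ± 0.16% and Mixed 2.15 ± 0.35%. Apart from B cells and plasma cells, the class means therefore lay between 1.94% and 2.38%, with SDs that overlap for most neighbours. Plasma cells, which secrete antibody, had 1.46%, 1.52% and 0.90%. Immunoglobulin genes took 57.6 ± 11.8% of plasma cell UMIs. Counted among the other UMIs alone, the members' share in plasma cells was 2.81%, 3.28% and 3.10%, above each other class in its library. Library 1 held 7 plasma cells, library 2 held 12 and library 3 held 35.

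The mitochondrially coded genes were ordered differently. By mean, their share was highest in B cells, at 5.48%, 4.13% and 1.96% (3.86 ± 1.78%), and pDC (3.77 ± 1.79%). It was lowest in plasma cells (1.37 ± 0.87%) and cDC (2.99%, 1.93% and 1.16%). By mean, B cells thus joined the second-lowest nuclear-coded share to the highest mitochondrially coded one. The order did not hold in each library. In library 1 the nuclear-coded share of B cells was below that of plasma cells. In library 3 the mitochondrially coded share of CD4 T cells was above that of B cells. Spearman's correlation of the 2 shares over the classes with at least 20 cells was -0.43 over 9 classes in library 1, -0.26 over 8 in library 2 and 0.13 over 10 in library 3. Both shares have the same denominator, and the points of a library share its depth and chemistry, so these values are a description.

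**Figure D1:**
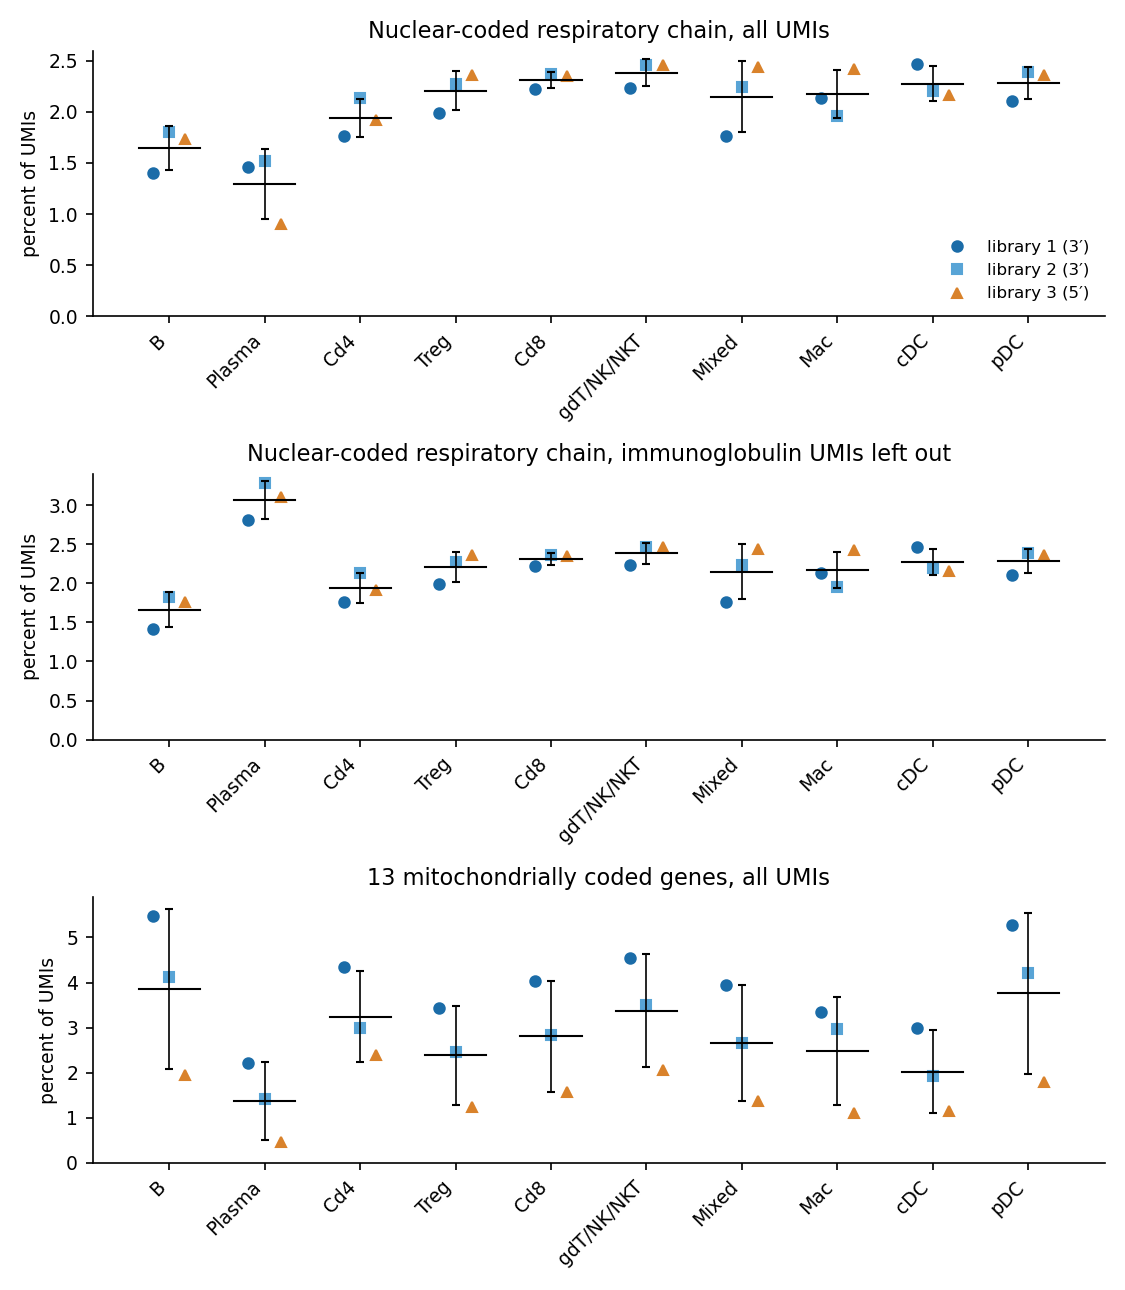
Percent of UMIs in 10 cell classes, 1 point per library, with the mean as a line and the SD as a bar (n = 3 libraries; pDC in library 2 rests on 2 cells). The top panel shows the 93 nuclear-coded genes, the middle panel the same with immunoglobulin UMIs left out, where plasma cells rise from 1.29% to 3.06%, and the bottom panel the 13 mitochondrially coded genes, highest in B cells at a mean of 3.86%.

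Single genes were then compared on UMIs summed per class and library, taking the 8 classes that reached 20 cells per library and setting a class against the average of the remaining 7. 89 members passed the filter on low counts among 10895 genes tested. A gene is called higher or lower where the adjusted p of edgeR's quasi-likelihood test, Benjamini-Hochberg over all genes tested, was under 0.05. 14 of the 89 members were called in none of the 8 class comparisons, and Cox8a, a subunit of complex IV, was called in all 8. The uncalled members included Atp5md, Atp5o, Atp5o.1 and Atp5s, names recorded in only some of the libraries. Levels are CPM after TMM scaling, which sets libraries to 1 scale on the assumption that most genes do not differ. End-tag UMIs were not divided by transcript length, so a level is compared between classes and not between genes.

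In B cells 1 member was called higher and 47 lower, where 20.8% of all genes tested were called higher and 16.4% lower. The members' median log2 fold change was -0.32, against 0.03 for all genes. The lower members came from each complex: 21 of 45 in complex I, 3 of 4 in complex II, 2 of 8 in complex III, 10 of 13 tested in complex IV and 11 of 19 in complex V. Ndufa1, an accessory subunit of complex I, was at 134, 199 and 148 CPM in B cells of the 3 libraries and at 246, 398 and 238 CPM in CD8 T cells. Its fold change against the other classes was -0.81 ± 0.15 (log2, SE), adjusted p = 0.000149. Uqcr11 (complex III, -0.71 ± 0.11), Uqcrq (complex III, -0.70 ± 0.11), Ndufv3 (complex I, -0.69 ± 0.12) and Cox7b (complex IV, -0.68 ± 0.12) were lower by a like size. The exception was Ndufaf4, an assembly factor of complex I, at 35.1 ± 5.51 CPM in B cells and called higher by 0.48 ± 0.18, adjusted p = 0.0451. That call was lost at equal UMIs per sum (adjusted p = 0.494), without the library as a block (0.36), without TMM (0.128) and without replicate 1 (0.19) or replicate 3 (0.166). None of the other assembly factors was called in B cells.

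The 13 mitochondrially coded genes ran the other way in B cells, with 12 called higher, 0 lower and a median log2 fold change of 0.61. mt-Nd5 was higher by 0.90, mt-Nd2 by 0.88 and mt-Nd4 by 0.78, all subunits of complex I. Of 19 genes for mitochondrial biogenesis and the expression of mitochondrial DNA, 5 were called higher in B cells and 0 lower. The shares over all genes tested were 20.8% higher and 16.4% lower, so the higher count is near that share. Tfam, which packages mitochondrial DNA and starts its transcription, was at 110, 113 and 101 CPM in B cells and at 52.4 CPM or less on average in the other 7 classes, a log2 difference of 1.74. The B cell libraries did not overlap with those of any other class for Tfam. Among the 16 genes of the tricarboxylic acid cycle 2 were called higher and 4 lower, against the same 20.8% and 16.4% of all genes. These calls included Fh1 (0.88), which makes malate from fumarate, and Idh3a (-0.62), a subunit of the NAD-dependent isocitrate dehydrogenase.

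**Figure D2:**
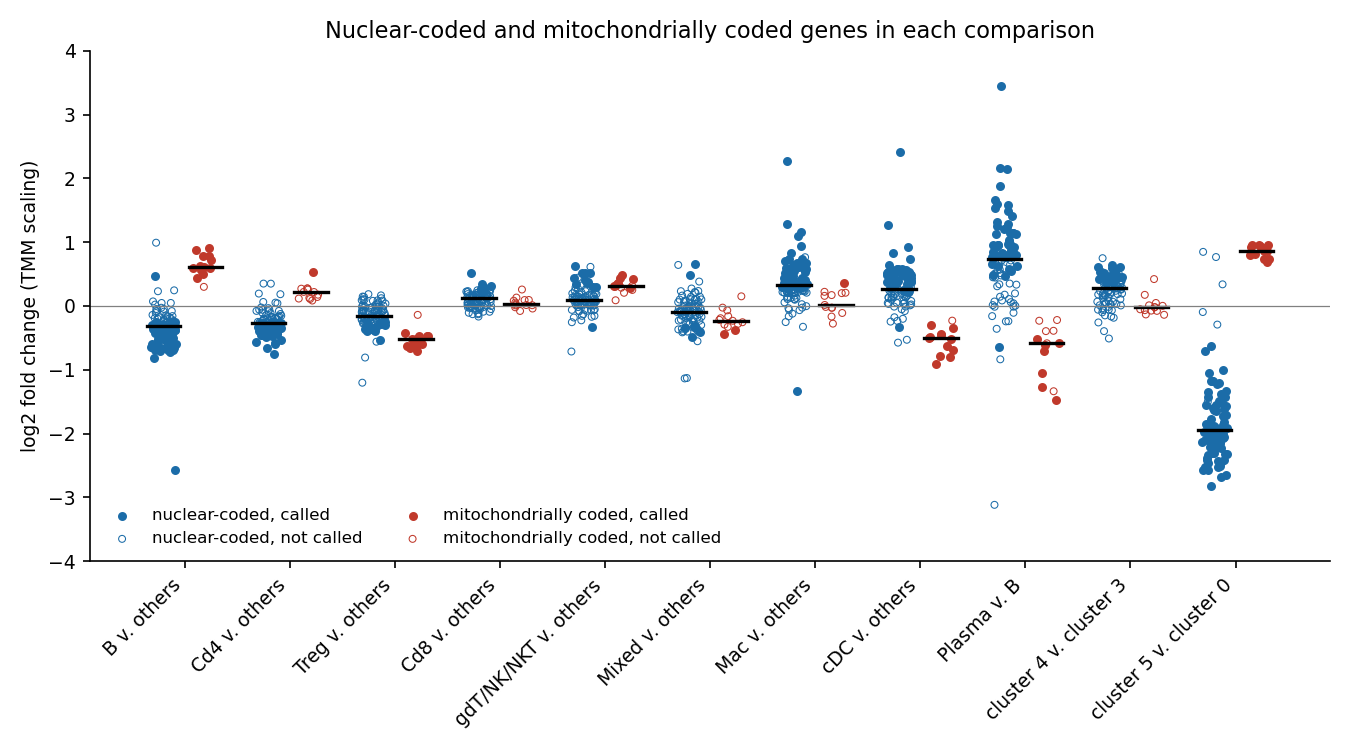
Log2 fold change of each tested member (blue) and of the 13 mitochondrially coded genes (red) in 11 comparisons under TMM scaling. Filled points were called by edgeR at an adjusted p under 0.05 and black lines are medians. 3 points lie beyond the axis limit of 4. The nuclear-coded medians are below 0 in B cells, CD4 T cells and cluster 5 (-0.32, -0.27 and -1.94). The mitochondrially coded medians of these 3 comparisons are above 0 (0.61, 0.22 and 0.86). In cDC the signs are the other way round. The same holds under TMM but not with totals in plasma cells and in cluster 4, where the mitochondrially coded median is -0.02.

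In macrophages 48 members were called higher and 1 lower under TMM scaling, against 25.8% of all genes higher and 22.1% lower, while with library totals alone the split was 13 higher and 7 lower. The members' median log2 fold change was 0.33 with all genes at -0.08 under TMM, and -0.01 with all genes at -0.41 under totals. The direction of the members as a group thus depended on the scaling. A change of scaling shifts all genes of a comparison by nearly the same amount, so the gap between these medians could hardly change. Each complex had members called higher: 21 of 45 in complex I, 3 of 4 in complex II, 5 of 8 in complex III, 10 of 13 in complex IV and 9 of 19 in complex V. Called members that were higher under both scalings included Ndufc2, an accessory subunit of complex I, at 266, 291 and 213 CPM (1.10 ± 0.11). The other classes apart from cDC were at 125 CPM or less on average for Ndufc2, and no macrophage library overlapped with theirs. Ndufb8 of complex I was at 373, 337 and 326 CPM, also with no overlap outside cDC, and was higher by 0.84 ± 0.11. Cox6b1, a subunit of complex IV at the interface of its dimer, was at 747, 754 and 557 CPM and higher by 0.73 ± 0.08. Cox4i1 (0.66 ± 0.08) and Uqcrq (0.67 ± 0.10) were called under both scalings as well. Atp5g3, a gene for the c ring of the ATP synthase, was at 0.30 under TMM and at -0.04 under totals, and Ndufa2 of complex I at 0.33 and -0.01.

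None of the 10 assembly factors was called higher in macrophages, and Ndufaf4 was called lower. It was at 17.0, 2.97 and 11.98 CPM there and at 26.3 to 37.8 CPM on average in B and T cell classes, a log2 difference of -1.33 ± 0.26 (adjusted p = 0.000164) under TMM and -1.65 under totals. Its call was lost at equal UMIs per sum (-0.74, adjusted p = 0.242). The cDC libraries, at 24.0, 14.5 and 11.4 CPM, overlapped with the macrophage ones, and Mixed, at 21.2, 47.7 and 19.3 CPM, lay just above them. Of 34 tested assembly genes with other names, 5 were called higher and 7 lower in macrophages, against 25.8% and 22.1% of all genes tested. These calls included Sco2, a copper chaperone for complex IV (1.04), and Atpaf1, an assembly factor of the ATP synthase (-1.40). In the biogenesis list of 19 genes 4 were called higher and 5 lower, near the shares over all genes. The higher ones included the coactivator Ppargc1b (1.27), the RNA-binding Slirp (1.26) and the nuclear receptor Esrra (1.16). The lower ones included Polg2 (-2.02), an accessory subunit of the mitochondrial DNA polymerase, and Tfam (-1.46). The Tfam level was 15.98, 11.9 and 19.5 CPM in macrophages. Of the 13 mitochondrially coded genes 1 was called higher, mt-Nd4 (0.36 under TMM, 0.01 under totals), and 0 lower, whereas with totals alone 0 were higher and 7 lower. Under TMM no gene of the tricarboxylic acid cycle was called by edgeR in macrophages. Of 7 genes for carriers and other outlets of the proton gradient 6 were called higher and 1 lower, also under TMM. Counts of these lists under totals are not given here. Vdac2, a channel of the outer membrane, was higher by 0.92, the ATP carrier Slc25a5 by 0.78 and Ucp2 by 0.68, and the other ATP carrier, Slc25a4, was lower by 0.31.

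The 4 subunits of succinate dehydrogenase did not move together. Sdhb, the iron-sulfur subunit, was at 269, 293 and 284 CPM in macrophages, at 188, 148 and 206 CPM in cDC and between 74.6 and 143 CPM in every library of the other 6 classes. The 3 macrophage libraries lay above each library of each other class. Sdhb was called higher in macrophages by 1.28 ± 0.09 (adjusted p = 8.7e-12) under TMM and by 0.94 under totals, the largest difference among members called higher in macrophages and at 20 CPM or more. Sdhc and Sdhd anchor the complex in the membrane. Sdhc was at 61.9, 53.5 and 97.3 CPM in macrophages and 25.5, 22.2 and 29.7 CPM in B cells, and was called higher in macrophages by 0.94 ± 0.13. Sdhd was called higher by 0.62 ± 0.14 under TMM, and at 0.27 under totals it was not called (adjusted p = 0.112). Sdha, the flavoprotein that oxidises succinate, was at 77.9, 81.8 and 74.8 CPM in macrophages and 99.8, 102 and 98.3 CPM in B cells. Its difference in macrophages was -0.16 ± 0.13 (adjusted p = 0.337), and it was called in none of the 8 class comparisons. In B cells Sdhb (-0.65 ± 0.11), Sdhc (-0.69 ± 0.14) and Sdhd (-0.60 ± 0.15) were called lower and Sdha was at 0.25 ± 0.12 (adjusted p = 0.115). The difference between Sdha and the other subunits was not itself tested. Ranked by mean, the Sdhb levels of Mac and cDC stood first and second, and those of CD8, gdT/NK/NKT and regulatory T cells (128 ± 10.1, 125 ± 7.0 and 119.5 ± 20.6 CPM) did not differ beyond their SDs.

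**Figure D3:**
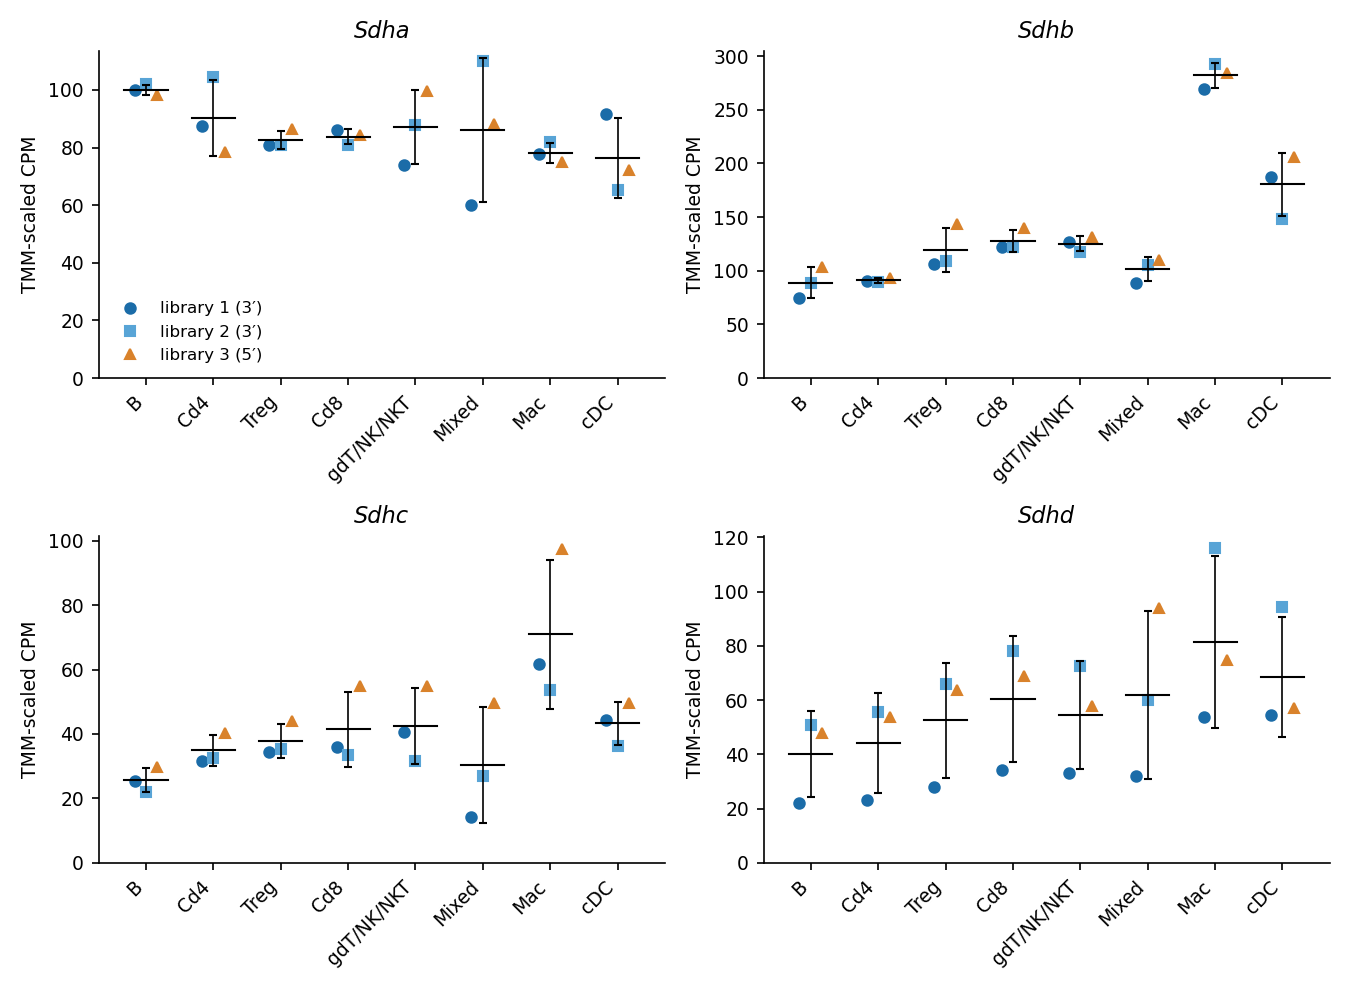
TMM-scaled CPM of the 4 subunits of complex II in the 8 classes of the class comparison, 1 point per library with the mean as a line and the SD as a bar (n = 3). Sdhb stands at 269 to 293 CPM in macrophages, above every other library, while the Sdha libraries lie between 60.15 and 109.9 CPM.

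The promoters of Sdha, Sdhb and Sdhd are shown because Sdhb and Sdhd were called higher in macrophages under TMM and Sdha was not called. Sdhc had no match among the windows used. Each run is 150 bases of the gene's own strand from RefSeq (GRCm38.p6), 5′ to 3′, ending before the outermost start that RefSeq or GENCODE M21 gives the gene. Capitals mark matches on either strand to the letters GCGCANGCG, a core of the site of NRF1, or CCGGAAG, of GABPA, factors known for binding respiratory chain promoters. Ndufaf4 and Ndufa1 are added as the assembly factor that was lower in macrophages and the subunit with the largest plasma cell difference among members at 20 CPM or more.
Sdha, chr13:74350281-74350430, minus strand: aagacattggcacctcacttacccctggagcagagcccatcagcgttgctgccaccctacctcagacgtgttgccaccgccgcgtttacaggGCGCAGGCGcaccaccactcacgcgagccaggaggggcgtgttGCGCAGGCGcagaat
Sdhb, chr4:140961053-140961202, plus strand: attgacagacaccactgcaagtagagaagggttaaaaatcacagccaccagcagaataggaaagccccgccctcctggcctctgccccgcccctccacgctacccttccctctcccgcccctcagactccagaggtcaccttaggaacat
Sdhd, chr9:50603850-50603999, minus strand: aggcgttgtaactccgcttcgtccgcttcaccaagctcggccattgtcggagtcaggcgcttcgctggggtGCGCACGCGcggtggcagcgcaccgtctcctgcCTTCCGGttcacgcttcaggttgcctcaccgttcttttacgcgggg
Ndufaf4, chr4:24897933-24898082, plus strand: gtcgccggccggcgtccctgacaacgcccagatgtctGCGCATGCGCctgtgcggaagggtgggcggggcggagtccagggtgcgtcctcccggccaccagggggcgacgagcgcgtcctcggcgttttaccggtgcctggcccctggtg
Ndufa1, chrX:37191239-37191388, minus strand: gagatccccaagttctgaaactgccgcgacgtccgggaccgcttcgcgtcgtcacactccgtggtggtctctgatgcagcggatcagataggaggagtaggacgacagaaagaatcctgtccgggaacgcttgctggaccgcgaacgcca

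The Sdha run holds the NRF1 letters in 2 places, the Sdhd run holds both motifs, and the Ndufaf4 run holds the NRF1 letters on both strands at 1 overlapping place. The Sdhb and Ndufa1 runs hold neither, which says only that these letters are not in those windows. Over the full RefSeq windows of 250 bases before to 50 after the start, 76 of the 93 members had 81 windows. The NRF1 letters were in 28.4% of the 81 windows, against 6.25% of all 32851 windows and 11.5% of the 15266 windows of genes in the count table. For GABPA the shares were 23.5%, 8.86% and 15.6%. For YY1 (AAGATGGC) they were 13.6%, 2.75% and 3.94%, and for ESRRA (AAGGTCA) 9.88%, 4.72% and 3.49%. Both strands were searched, a window can count for several motifs, and 36 member windows held none of the 4. A match is a description of the letters and not of binding.

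In cDC 42 members were called higher and 1 lower, against 20.8% of all genes higher and 19% lower, and with totals alone 26 were higher and 2 lower. The median was 0.26 with all genes at -0.11 under TMM, and 0.13 with all genes at -0.23 under totals. Ndufc2 was at 254, 199 and 217 CPM in cDC (0.93 ± 0.12), and each of these libraries lay above those of B and T cell classes. Ndufa9, an accessory subunit of complex I, was higher by 0.84 ± 0.15, Ndufa6 of complex I by 0.73 ± 0.11 and Cox5b of complex IV by 0.65 ± 0.10. Atp5g1, a gene for the c ring of the ATP synthase, was higher by 0.58 ± 0.12. The assembly factors Ndufaf3 (0.59 ± 0.19), Ndufaf6 (1.27 ± 0.46) and Ndufaf8 (0.38 ± 0.15) were called higher. Their adjusted p by edgeR was 0.0149, 0.0307 and 0.0433. Ndufaf6 was sparse, with 275 UMIs in all cells and a mean of 6.3 CPM over the 8 classes. The exception was Uqcrh, a hinge protein of complex III, at 668, 655 and 407 CPM and lower by 0.33 on the log2 scale (-0.33 ± 0.10). The mitochondrially coded genes again went the other way, with 12 of 13 called lower, 0 higher and a median of -0.51. Without replicate 1, which supplied 232 of the 294 cDC, 18 members were called in place of 43.

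Plasma cells were set against B cells, the lineage they arise from, in a fit with at least 5 cells per sum. 90 members were among 11527 genes tested. 52 were called higher and 1 lower, against 10.3% of all genes higher and 14.9% lower, with a members' median of 0.74 and an all-gene median of -0.49. With totals alone 5 were called higher and 47 lower, with medians of -0.72 and -1.91. When scaling factors were computed without immunoglobulin genes the calls were 50 higher and 1 lower. The direction of the group thus flips with the scaling. The members' median lay above that of all genes each way, which is no separate check. A change of scaling shifts all genes of a comparison by nearly the same amount, so this gap could hardly change. Ndufa1 was at 1010, 2020 and 1766 CPM in plasma cells and at 123, 184 and 135 CPM in B cells. Its log2 difference was 3.44 ± 0.22 (adjusted p = 1.9e-13) under TMM and 2.26 under totals, and the groups did not overlap. Uqcrq was at 814, 1439 and 832 CPM against 232, 258 and 208 CPM (2.15 ± 0.18). Atp5g1 was at 603, 1083 and 680 CPM against 156, 176 and 186 CPM (2.15 ± 0.19). Of the UMIs of the 3 c ring genes Atp5g1 took 44.7 ± 13.4% in plasma cells and 20.0 ± 2.37% in B cells. Ndufb2, Ndufs3 and Ndufb9 of complex I were higher by 1.88 ± 0.20, 1.67 ± 0.19 and 1.59 ± 0.19.

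By part of the complex, 23 of the 30 accessory and 3 of the 7 core subunits of complex I were called higher in plasma cells under TMM, and 0 of the 10 assembly factors. Counts by part under totals are not given here. Apart from Cox7a2l the assembly factors averaged 3.24 to 71.4 CPM over the 8 classes of the class comparison. The part of their low level in the missing calls was not tested. Cox7a2l, an assembly factor of supercomplexes, was called lower, at 211, 363 and 145 CPM against 462, 465 and 233 CPM (-0.65 ± 0.19). Sdhb was higher by 0.96 ± 0.20 under TMM and at -0.44 under totals, and Sdha (-0.24 ± 0.25), Sdhc (0.57 ± 0.37) and Sdhd (-0.11 ± 0.35) were not called. 7 of the 13 mitochondrially coded genes were called lower and 0 higher, led by mt-Nd2 (-1.47), mt-Nd3 (-1.27) and mt-Nd5 (-1.05). Tfam was at 30.1, 21.8 and 16.5 CPM against 101, 104 and 92.5 CPM, lower by 2.24 on the log2 scale (-2.24). Cycs, the gene of cytochrome c, was higher by 1.40.

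Among T cell classes, CD4 T cells had 0 members called higher and 43 lower, against 19.8% of all genes higher and 10.7% lower. Cox5a, a subunit of complex IV, was at 310, 265 and 226 CPM in CD4 cells and at 588, 526 and 450 CPM in CD8 cells, with no overlap between them (-0.75 ± 0.12 against all other classes). Sdhb (-0.58 ± 0.10), Uqcr11 (-0.57 ± 0.10) and Cox8a (-0.54 ± 0.10) were lower too. 973 of the 3790 CD4 cells belonged to cluster 5, described below, and without that cluster 21 members were called lower. With totals alone 10 were called lower, and the members' median moved from -0.27 to -0.12 while that of all genes moved from 0.07 to 0.23. In CD4 cells 1 of the 13 mitochondrially coded genes was called higher and 0 lower under TMM (median 0.22). With totals alone 12 were called higher and 0 lower (median 0.38). Regulatory T cells had 0 higher and 14 lower, against 15.8% and 9.42% of all genes, but 7 higher and 0 lower with totals alone. Under TMM Ndufc1 (-0.54 ± 0.14), Cox7a2l (-0.39 ± 0.11), Ndufb10 (-0.39 ± 0.09) and Cox4i1 (-0.38 ± 0.09) were lower, and none of these was called with totals alone. Of the 13 mitochondrially coded genes 12 were called lower in regulatory T cells under TMM and 6 with totals alone. Without library 1, and likewise without library 2, 1 member was called. The members' median was -0.15 with all genes at 0.01 under TMM, and 0.08 with all genes at 0.24 under totals.

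CD8 T cells had 5 members called higher and 0 lower, below the 17.8% and 10.1% of all genes. They were Ndufaf4 (0.52 ± 0.16), Cox5a (0.35 ± 0.11), Uqcrh (0.32 ± 0.08), Cox8a (0.28 ± 0.09) and Cox6c (0.27 ± 0.09). The class gdT/NK/NKT had 11 higher and 1 lower, against 14.9% and 10.5%. There Atp5h, a stalk subunit of the ATP synthase, was higher by 0.52 ± 0.09, Ndufa4, a subunit of complex IV despite its name, by 0.52 ± 0.11, and the assembly factors Ndufaf7 and Ndufaf4 by 0.63 ± 0.20 and 0.51 ± 0.18. Ndufc2 was lower (-0.33 ± 0.12). 7 of the 13 mitochondrially coded genes were called higher in this class. Mixed had 2 higher and 6 lower, against 8.48% and 4.68%, and 3 higher and 1 lower with totals alone, and 3 higher and 0 lower without library 1. Ndufv3 (0.65 ± 0.12) and Ndufs5 (0.48 ± 0.16) of complex I were its higher members and Cox5b (-0.48 ± 0.11) the lowest of the lower ones.

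Tissue isoforms of complex IV subunits were sparse with 1 exception. Cox6a2, the heart and skeletal muscle isoform of subunit 6a, had 828 UMIs, of which 803, or 97.0%, were in pDC, a class that held 2.37% of all UMIs. It lies at chr7:128205435-128206387 on the minus strand (GRCm38). In pDC it was at 701, 769 and 737 CPM without TMM scaling in libraries 1, 2 and 3, the second of these from 2 cells. No UMI of it was seen in B cells, regulatory T cells, Mixed or gdT/NK/NKT. Outside pDC it had 25 UMIs: 11 in macrophages, 6 in cDC, 5 in plasma cells, 2 in CD4 and 1 in CD8 cells. A UMI of Cox6a2 was found in 116 of 143 pDC of library 1 (81.1%, 95% Clopper-Pearson interval 73.7 to 87.2%, counting error only) and in 25 of 30 of library 3 (83.3%, 65.3 to 94.4%). In B cells it was found in 0 of 1950, which allows a share of up to 0.154% of cells with a UMI and is no limit on cells that express the gene. With each cell thinned to 1000 UMIs the share was 48.6% of 175 pDC and 0 of 1904 B cells, and unthinned it was 81.7% in pDC at a median of 6569 UMIs per cell, against 3114 in B cells. The ubiquitous isoform Cox6a1 was present in pDC too, at 249 and 229 CPM in libraries 1 and 3, and at 209, 197 and 200 CPM in B cells of the same fit. The 5 UMIs in plasma cells came from 2 cells of library 2, and the call of Cox6a2 as higher in plasma than in B cells (adjusted p = 0.0052 by edgeR) rests on them.

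Cox6b2, the testis isoform of subunit 6b, had 207 UMIs, 43.0% of them in Mac and cDC, which together held 14.0% of all UMIs. It was at 11.9, 15.0 and 7.13 CPM without TMM scaling in macrophages and at 17.6, 13.1 and 3.96 in cDC, against 0.22, 2.09 and 1.12 in B cells. It was called higher in macrophages (2.28 ± 0.33, adjusted p = 2.55e-06) and cDC (2.42 ± 0.37) and lower in B cells (-2.56 ± 0.59). The value in cDC of library 3 rested on 1 UMI and lay below that of CD4 cells in libraries 1 and 2. Of all 6b UMIs Cox6b2 made up 2.01 ± 0.68% in macrophages and 2.03 ± 1.08% in cDC. Cox7a1, the muscle isoform of subunit 7a, had 76 UMIs over 9 classes and was at most 0.75% of 7a UMIs in a class mean. Cox4i2 had 6 UMIs, all in macrophages of library 1, and Ndufa4l2 had 0, which allows up to 3 UMIs among all 11640 cells.

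**Figure D4:**
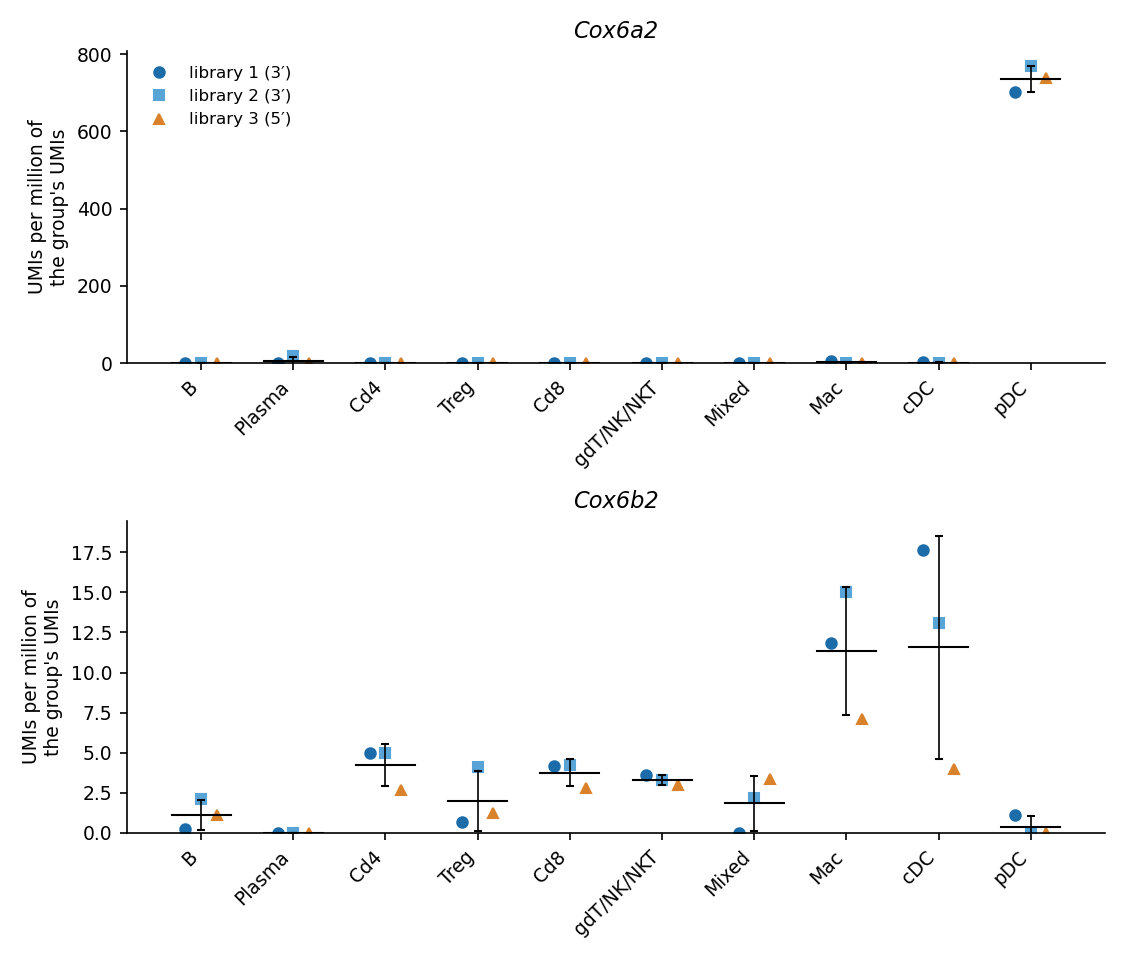
CPM of each class and library for the complex IV isoforms Cox6a2 and Cox6b2 in 10 classes, without TMM scaling, with the mean as a line and the SD as a bar (n = 3; pDC in library 2 holds 2 cells). Cox6a2 stands at 701 to 769 in pDC and below 20 in every other class and library, and Cox6b2 is highest in macrophages and cDC, at up to 17.6.

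The depositors' clusters split 2 of the classes further. The CD4 class held clusters 0, 5 and 6. In cluster 5 the members took 0.63%, 1.08% and 0.78% of UMIs, against 1.83%, 2.11% and 2.14% in cluster 0, and the mitochondrially coded genes 7.82%, 7.27% and 6.17% against 4.23%, 3.05% and 1.57%. The ratio of nuclear-coded to mitochondrially coded UMIs was 0.12 ± 0.03 in cluster 5 and 0.83 ± 0.48 in cluster 0. In the fit on clusters, 88 members were among 10545 genes tested. 82 were called lower in cluster 5 and 0 higher, against 22.1% of all genes lower and 17.7% higher, and with totals alone 76 were lower and 3 higher. Their median log2 fold change was -1.94 with all genes at -0.04 under TMM, and -1.40 with all genes at 0.50 under totals. Cox7b was at 47.2, 42.2 and 42.5 CPM in cluster 5 and 408, 367 and 247 CPM in cluster 0 (-2.83 ± 0.19). Atp5e, the ε subunit in the head of the ATP synthase, was at 85.4, 135 and 156 CPM against 829, 961 and 750 CPM (-2.68 ± 0.17). Uqcrb of complex III (-2.58 ± 0.23) and Ndufb4 of complex I (-2.57 ± 0.26) followed.

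Sdha was lower in cluster 5 by 0.62 on the log2 scale (-0.62 ± 0.19) and Ndufa13 by 1.002 (-1.002 ± 0.16), less than most members. 4 of 9 tested assembly factors were called lower, with a median of -1.18. The 6 members not called were Ndufaf1, Ndufaf4, Ndufaf5, Ndufaf6, Ndufaf7 and Ndufs1, named after their values were seen. All 13 mitochondrially coded genes were called higher, with a median of 0.86. 6 of 16 genes of the tricarboxylic acid cycle were called lower and 0 higher, against 22.1% and 17.7% of all genes tested. Several other values differed between the 2 clusters. The median was 898 ± 68.2 UMIs per cell in cluster 5 and 3310 ± 534 in cluster 0. Ribosomal protein genes took 6.34 ± 1.22% and 28.2 ± 1.92% of UMIs. Malat1, a nuclear non-coding RNA, took 8.36%, 5.99% and 2.93% in cluster 5 and 2.92%, 1.75% and 0.46% in cluster 0. With each cell thinned to 1000 UMIs, 7.35 ± 1.75 members were seen per cell in cluster 5 and 16.1 ± 1.54 in cluster 0. Cd8a was at 171, 189 and 1135 unscaled CPM in cluster 5 and at 31.6, 17.1 and 69.7 in cluster 0. The 3 markers of regulatory T cells and both of CD8 cells were called higher in cluster 5. The part of depth, RNA quality and cell mixture in the difference was not tested.

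**Figure D5:**
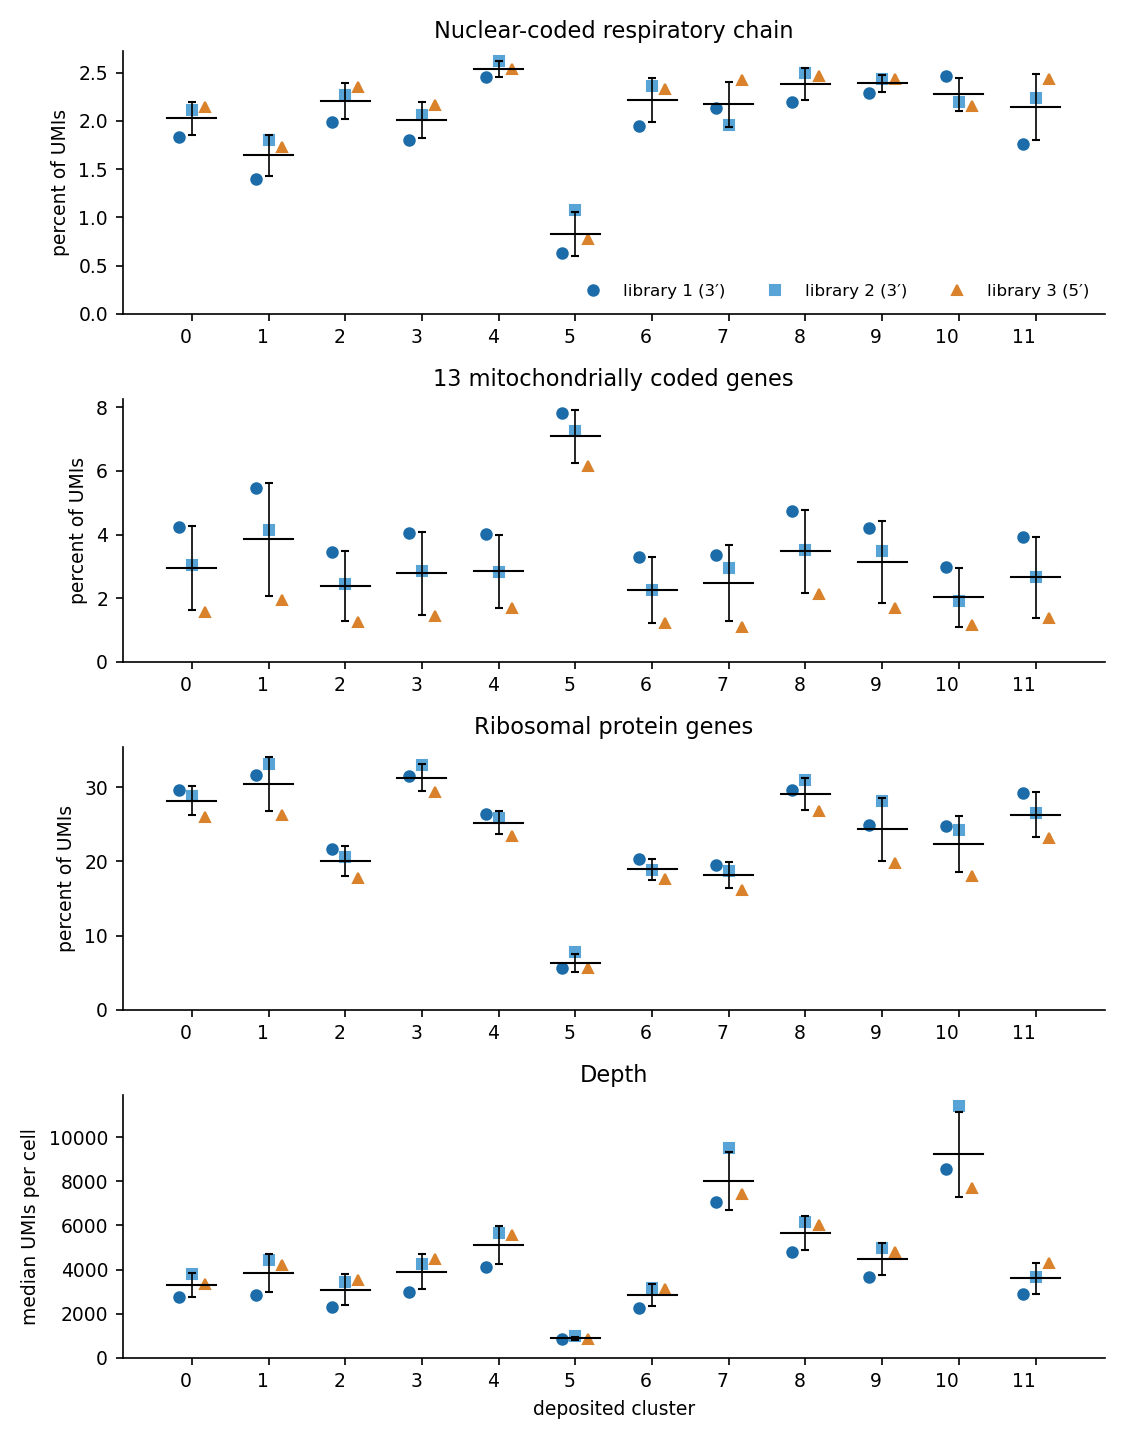
Percent of UMIs from the 93 nuclear-coded genes, the 13 mitochondrially coded genes and ribosomal protein genes, and median UMIs per cell, in clusters 0 to 11, 1 point per library with the mean as a line and the SD as a bar (n = 3). Cluster 5 has the lowest nuclear-coded share (mean 0.83%), the highest mitochondrially coded share (7.09%) and the fewest UMIs per cell (898), and cluster 4 has the highest nuclear-coded share (2.54%).

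Clusters 4 and 3 are both CD8 T cells. The members took 2.46%, 2.63% and 2.53% of UMIs in cluster 4 and 1.81%, 2.07% and 2.17% in cluster 3, without overlap. 22 members were called higher in cluster 4 and 0 lower, against 7.85% of all genes higher and 6.86% lower, and the members' median was 0.28. Ndufb2 was at 138, 162 and 141 CPM against 93.6, 90.0 and 98.0 CPM (0.64 ± 0.16), Ndufb8 was higher by 0.61 ± 0.15 and Cox5b by 0.54 ± 0.16. Sdhb was at 141, 155 and 176 CPM against 95.8, 92.7 and 120 CPM (0.61 ± 0.14) and Sdha at -0.16 ± 0.15. Of the mitochondrially coded genes 0 of 13 were called either way by edgeR. Without library 1 there was 1 call, without library 2 there were 0 and without library 3 there were 17, and DESeq2 called 36 higher and 1 lower. Mki67, a gene of dividing cells, was at 292, 39.1 and 152 unscaled CPM in cluster 4 and 19.8, 14.2 and 11.6 in cluster 3. The part of cell division in the members' difference was not tested.

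Cluster 6 against cluster 0, both CD4 cells, gave 0 members called by edgeR, against 3.03% of all genes higher and 3.89% lower. 12 of 88 members had an unadjusted p under 0.05, and DESeq2 called 3 higher and 3 lower. Cluster 9 against cluster 8, both in gdT/NK/NKT, also gave 0 members by edgeR, against 1.73% higher and 1.88% lower, with 1 member at an unadjusted p under 0.05 and 0 called by DESeq2.

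Between libraries, single members differed in the same direction across classes. 5 names recorded in only part of the libraries were left out here. Of the other 78 members with a mean of at least 20 CPM, 29 were lower in the 5′ library than in the mean of the 3′ libraries in all 8 classes and 5 were higher in all 8. Atp5g3 was higher in library 3 by a median of 1.08 on the log2 scale (0.91 to 1.25 over the 8 classes) and Cox7a2l lower (-0.99, from -1.34 to -0.78). Ndufa3 (0.82) and Ndufb3 (-0.82) were the next in each direction. Library 3 is the only one sequenced from the 5′ end, so chemistry, annotation and sample cannot be told apart in these differences.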

How the data were processed

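The authors deposited UMI counts per gene and cell, aligned and counted with Cell Ranger 5.0.1 on mm10 and handled in Seurat 4.0, per the submitters' processing notes, together with a table of each cell's library, class, cluster and percent of mitochondrial UMIs (percent.mt). That deposited percent matched the 13 mitochondrially coded genes in all 11640 cells and reached 12.49. The deposited table held no cell under 491 UMIs, and no cell was removed here. Scanpy 1.11.5 (Scrublet) marked 84 cells as doublets, 0.722%, and these were kept, with an alternative without them.

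Members were set beside other lists of mitochondrial genes. Members and lists were chosen with earlier results of these data known. UMIs were summed per class or cluster and library and tested in edgeR 4.0.16 (R 4.3.3) with TMM scaling, filterByExpr, a term for the library and Benjamini-Hochberg adjustment over all genes tested. Classes and clusters needed 20 cells in each library. For plasma cells a sum needed 5 cells, which drops pDC of library 2. The library is a block because all classes of a library come from the same deposited sample. SEs are the log2 fold change divided by the square root of F. The script was tested on simulated counts. Named genes are, in each comparison, up to 6 members called in each direction with the largest differences at 20 CPM or more, all isoform groups and Sdh genes, called Ndufaf genes, and up to 3 called genes of each other list in each direction in macrophages, B cells and plasma cells, of which 1 is not reported here. Examples in the text are taken from these, and Cd8a, Mki67 and Malat1 were added after values were seen. Coordinates are GRCm38, from GENCODE M21 or RefSeq. Intervals and limits from a count of 0 cover counting error only. DESeq2 1.42.0 and the other settings are alternatives.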

Additional observations from a re-analysis of the deposited data

How the results depend on the processing

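The counts of members called were recomputed under 14 alternative settings. With the sums thinned to equal UMIs, 25 members were called in B cells, 14 in CD4, 0 in CD8, 24 in macrophages, 4 in Mixed, 25 in plasma against B, 9 in regulatory T cells, 4 in gdT/NK/NKT and 0 in cluster 4 against 3. Without the replicate block, which pairs classes of a library, they were 18 in B cells, 2 in CD4, 0 in CD8, 24 in macrophages, 2 in Mixed, 0 in regulatory T cells, 20 in cDC, 1 in gdT/NK/NKT and 0 in cluster 4 against 3. DESeq2 gave 10 in CD8, 25 in regulatory T cells, 37 in cluster 4 against 3 and 6 in cluster 6 against 0. Without the filter on low counts there were 3 in CD8 and 13 in cluster 4 against 3. Without cluster 5 there were 21 in CD4, 3 in CD8, 13 in Mixed and 24 in regulatory T cells. Cluster 6 against 0 gave 1 with names joined across libraries, 2 with cells of at most 5 percent.mt and 1 with scaling without ribosomal and mitochondrial genes. The settings that join names, leave out cluster 5 or immunoglobulin genes, or use totals were chosen after seeing the data.

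With library totals in place of TMM, 10 members were called in CD4, 20 in macrophages, 28 in cDC and 3 in cluster 6 against 0, and the balance of directions turned over in Mixed (4 called), plasma against B (52) and regulatory T cells (7). Single genes that changed sign under totals in macrophages were Atp5g3 (-0.040) and Ndufa2 (-0.014). In plasma against B they were Atp5e (-0.39), Atp5g3 (-0.38), Cox6a1 (-0.31), Cox6b1 (-0.77), Cox7a2 (-0.24), Cox7c (-0.35), Ndufa13 (-0.0020), Ndufb11 (-0.24), Sdhb (-0.44), Cox17 (-0.11), Cox16 (-0.37), Ssbp1 (-0.73), Atpif1 (-0.56), Cyc1 (-0.89), Suclg1 (-0.46) and Idh3g (-0.66). Cox6b1 was at -0.0030 there with equal UMIs. The cause of these changes was not tested. Of 231 named pairs of a gene and a comparison, DESeq2 kept the call and direction of 220, totals of 153 and the fit without the block of 102.

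Leaving out 1 library gave 25 to 39 calls in B cells, 16 to 31 in CD4, 0 to 1 in CD8, 34 to 47 in macrophages, 3 to 7 in Mixed, 35 to 44 in plasma against B, 1 to 11 in regulatory T cells, 18 to 54 in cDC, 3 to 8 in gdT/NK/NKT, 0 to 17 in cluster 4 against 3, 73 to 82 in cluster 5 against 0 and 0 to 1 in cluster 6 against 0. Mixed turned to 3 higher without library 1. With ribosomal and mitochondrial UMIs left out of the total, the members' share was 2.51% in B cells, 2.69% in CD4, 3.34% in CD8, 2.73% in macrophages, 3.01% in Mixed, 2.84% in regulatory T cells, 3.02% in cDC, 3.45% in gdT/NK/NKT and 3.08% in pDC, and without immunoglobulin UMIs it was 3.06% in plasma cells. Few cells limit plasma cells (54 cells) and pDC of library 2 (2 cells), and few UMIs limit sparse members.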
